A study of Mus musculus with 16 samples.

Results

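The difference of crush responses asks, gene by gene, whether injury of the optic nerve changed expression in mouse retina by the same amount in animals in which dual leucine zipper kinase (DLK) was inhibited as in animals given vehicle. It is the change from uncrushed to crushed retina with inhibitor minus the same change with vehicle, on the log2 scale. It covered all 36528 gene identifiers of the series, of which 19391 passed the filter on low counts and were tested. The 16 libraries were poly(A) RNA of retina taken 3 days after optic nerve crush. They formed 4 groups: uncrushed retina with vehicle (MCT, n = 3), crushed retina with vehicle (n = 3), uncrushed retina with GNE-3511 (n = 5) and crushed retina with GNE-3511 (n = 5). GNE-3511 is the DLK inhibitor. Mice received 75 mg/kg of it in 2 doses, 60 h and 68 h post-injury, so all groups lived through the first 60 h without it. Per drug, 5 mice are stated, and the labels give no strain, age or sex, nor which retinas came from the same animal. The p-values below therefore measure the spread between these samples.

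Optic nerve crush severs axons of the ganglion cells, the output neurons of the retina. DLK, encoded by Map3k12, and its relative leucine zipper kinase (LZK), encoded by Map3k13, sense axon damage and act through JNK kinases on transcription factors such as JUN and ATF3. In injured ganglion cells this cascade is known to drive both a cell death program and genes linked to axon regrowth, and it also feeds the integrated stress response, in which ATF4 turns on genes of amino acid supply and tRNA charging. Other retinal responses to crush, such as the activation of Müller glia and microglia, take place in other cells. In a whole retina, fewer cells of a type and less RNA per cell cannot be told apart.

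The difference was called for 2 genes, Gm13889 and Adcyap1, both below 0, meaning a smaller rise after crush with inhibitor. That was 0.0103% of the tested genes (edgeR quasi-likelihood F test, Benjamini-Hochberg adjusted p of 0.05 or less). Chac1, Stbd1 and Isl2 came next by p and were not called. The promoter stretches of the 4 of these 5 genes that had an entry in the RefSeq promoter table for GRCm38.p6 are shown because these genes lead the difference and their start regions can be searched for sites of stress-activated factors. Each is the 250 bases before a start that the table gives on the plus strand. Adcyap1, which encodes the neuropeptide PACAP, is shown at chr17:93198918-93199167. Chac1, which encodes a glutathione-degrading enzyme, is shown at chr2:119350992-119351241. Stbd1, which encodes a glycogen-binding protein, is shown at chr5:92602801-92603050. Isl2, which encodes a LIM-homeodomain factor of ganglion cells, is shown at chr9:55540899-55541148. The Adcyap1 and Isl2 stretches lie inside the gene spans, which begin at 93198245 and 55538677. Capitals mark matches to TGATGNAAN (a C/EBP-ATF response element), TGACGT (the core of a cyclic AMP response element) or TGANTCA (the AP-1 site), on either strand.
Adcyap1: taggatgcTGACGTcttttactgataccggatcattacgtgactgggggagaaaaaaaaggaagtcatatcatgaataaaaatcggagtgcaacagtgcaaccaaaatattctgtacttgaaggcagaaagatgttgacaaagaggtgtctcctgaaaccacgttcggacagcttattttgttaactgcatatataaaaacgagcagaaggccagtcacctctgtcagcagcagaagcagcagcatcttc
Chac1: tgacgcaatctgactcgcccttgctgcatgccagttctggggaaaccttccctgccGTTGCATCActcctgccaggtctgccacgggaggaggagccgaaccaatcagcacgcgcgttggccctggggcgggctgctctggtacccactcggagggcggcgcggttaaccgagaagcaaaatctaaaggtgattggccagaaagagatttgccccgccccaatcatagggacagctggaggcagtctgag
Stbd1: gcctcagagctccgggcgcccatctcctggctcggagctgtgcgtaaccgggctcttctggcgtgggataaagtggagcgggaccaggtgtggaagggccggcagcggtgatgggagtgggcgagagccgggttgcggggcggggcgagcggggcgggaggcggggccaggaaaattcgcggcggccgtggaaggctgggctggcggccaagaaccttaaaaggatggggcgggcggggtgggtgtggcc
Isl2: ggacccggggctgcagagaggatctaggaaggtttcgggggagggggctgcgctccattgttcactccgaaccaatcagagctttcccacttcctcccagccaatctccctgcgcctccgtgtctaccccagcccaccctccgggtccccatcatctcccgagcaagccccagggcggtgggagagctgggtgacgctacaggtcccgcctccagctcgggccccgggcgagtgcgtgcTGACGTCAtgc
The 250 bases before the Adcyap1 start shown held TGACGT beginning 242 bases upstream. RefSeq gives another Adcyap1 start, from which the same site began 91 bases upstream. Chac1 held GTTGCATCA, the reverse strand of TGATGNAAN, beginning 194 bases upstream. Isl2 held TGACGT and its reverse ACGTCA overlapping on 1 palindrome that began 11 bases upstream, and Stbd1 held none of the 3 motifs. Among 32851 promoter windows of 300 bases in the same table, 3.95% held TGATGNAAN, 7.51% held TGACGT and 7.81% held TGANTCA. Of the 29 genes of a list of ATF4 and integrated stress response targets that had an entry, 10 (34.5%) held TGATGNAAN, against 4.5% of all 27025 genes in the table. That list names targets of ATF4, and the motif is an element for such factors. The higher share therefore follows from how the list was made and says nothing about the crush responses. A match describes the letters of a window and does not show that a factor binds there.

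Libraries held 22.35 to 44.75 M counted reads. Markers fixed for rods, cones, bipolar, amacrine, horizontal and ganglion cells were present in every library. A few libraries stood apart, numbered here within each group in the order of the records. Uncrushed vehicle replicate 1 and crushed vehicle replicate 3 were the shallowest. Their summed level of 10 amacrine cell markers was 287 and 273 nRPKM, against 347 to 533 elsewhere; nRPKM is the authors' RPKM, reads scaled to gene length and library size, adjusted by a size factor per library. Summed lens markers stood at 248 nRPKM in uncrushed vehicle replicate 2 and at 341 and 638 in uncrushed inhibitor replicates 3 and 5, against 1.4 to 97.6 elsewhere. Summed keratinocyte-type genes of the ocular surface reached 9.69 and 23.5 nRPKM in crushed inhibitor replicates 3 and 5, against at most 1.9 elsewhere. Interferon-stimulated genes summed to 229 nRPKM in crushed inhibitor replicate 4, against 42.7 to 117 in the other libraries.

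Gm13889, a predicted gene on chromosome 2 (93955810 to 93957100), showed the difference with the smallest p. It stood at 10.5, 14.8 and 17.1 nRPKM in the uncrushed vehicle libraries and at 64.9, 69.2 and 58.7 in the crushed ones. With inhibitor it stood at 17.7, 17.3, 19.9, 17.4 and 16.9 nRPKM uncrushed and at 34.4, 34.1, 26.8, 32.8 and 29.6 crushed. All 5 crushed inhibitor libraries lay below all 3 crushed vehicle libraries, while the uncrushed groups overlapped. Over all tested genes the crushed vehicle and crushed inhibitor libraries did not overlap in 9.7%, and the uncrushed groups did not overlap in 9.54%. The gene rose by a log2 change of 2.18 ± 0.13 (SE) with vehicle and by 0.83 ± 0.10 with inhibitor. The difference was -1.35 ± 0.17 (95% interval -1.70 to -1.0, edgeR adjusted p = 0.00551). Inhibitor against vehicle gave -1.03 in crushed retina and 0.33 in uncrushed retina, with edgeR adjusted p of 0.000576 and 0.197. An exon of Gm27027 on the same strand overlapped 20.8% of the exon length of Gm13889, so part of its reads could belong to either. With the 3 lens-rich libraries left out, which leaves 13 libraries, the difference was -1.34 with an adjusted p of 0.157.

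Adcyap1, on chromosome 17 (93198245 to 93206541), encodes PACAP, a neuropeptide known for rising in injured neurons and protecting them. It stood at 0.509, 0.786 and 0.703 nRPKM in uncrushed and 3, 2.49 and 2.55 in crushed vehicle libraries. With inhibitor it stood at 0.844, 0.792, 0.795, 0.885 and 0.778 nRPKM uncrushed and 1.27, 1.74, 1.28, 1.37 and 1.19 crushed. Again no crushed inhibitor library reached the lowest crushed vehicle library, and the uncrushed groups overlapped. The rise was 1.99 ± 0.15 (SE) with vehicle and 0.75 ± 0.12 with inhibitor on the log2 scale. The difference was -1.24 ± 0.19 (95% interval -1.65 to -0.84, edgeR adjusted p = 0.0454). This call lay close to the threshold: leaving out 1 library at a time kept it without uncrushed vehicle replicate 2 or crushed inhibitor replicate 2 and ended it for each of the other 14, with edgeR adjusted p from 0.0054 to 0.263 and differences of -1.38 to -1.10. Without both keratin-rich libraries the adjusted p was 0.398. Both called genes were members of a list of axon injury and regeneration-associated genes that was chosen with results of these data known.

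**Figure D1:**
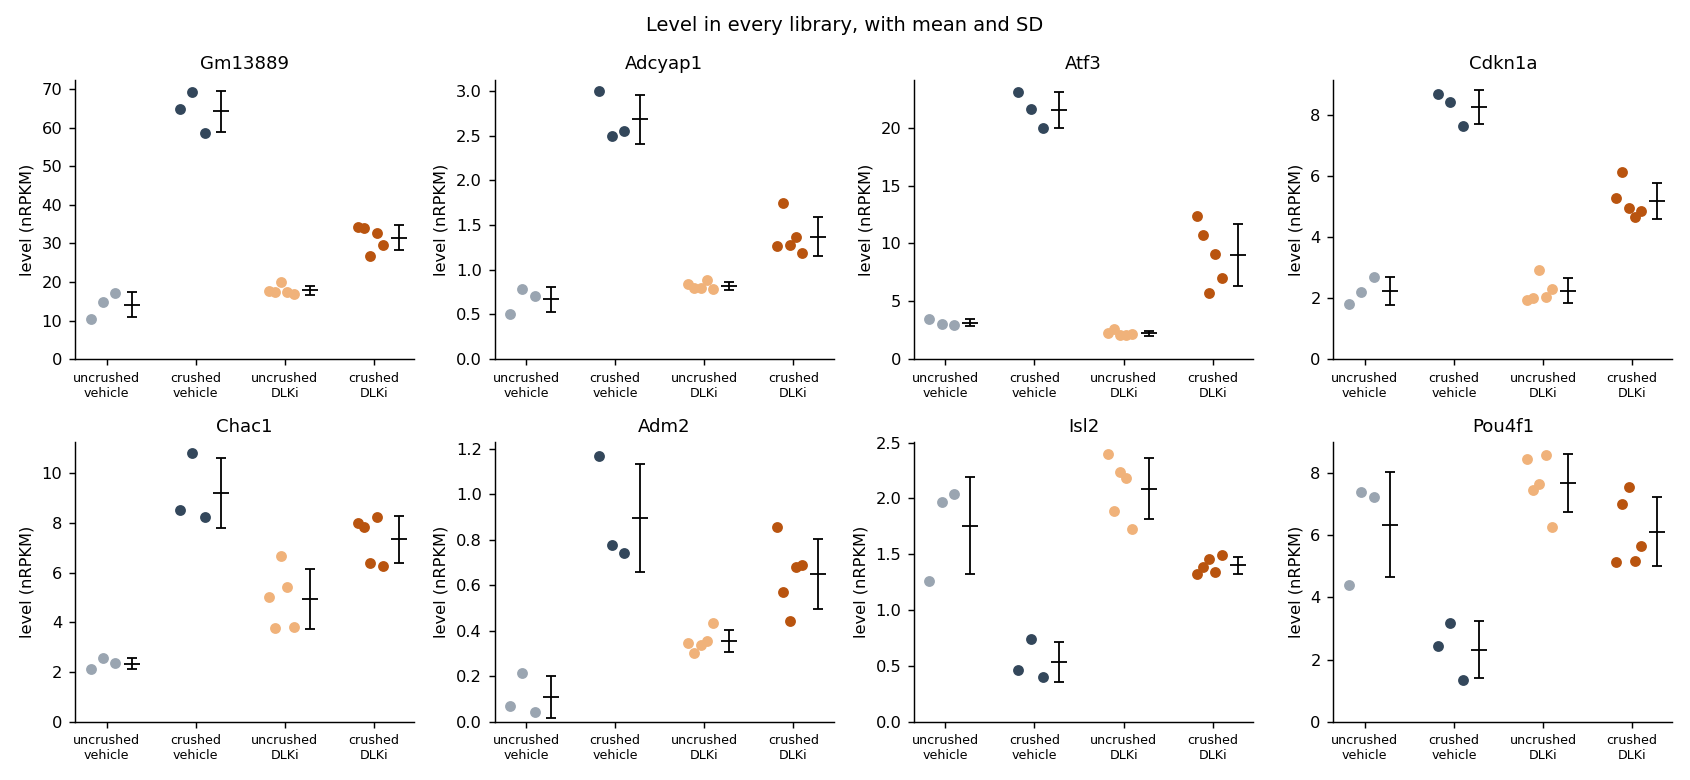
Level of 8 genes in every library, in nRPKM on linear axes from 0, for the 4 groups (points, 1 per library; bars, mean and SD; DLKi, GNE-3511). Gm13889, Adcyap1, Atf3 and Cdkn1a were lower in crushed inhibitor than in crushed vehicle libraries; Chac1 and Adm2 were higher in uncrushed inhibitor than in uncrushed vehicle libraries; Isl2 and Pou4f1 were higher in crushed inhibitor than in crushed vehicle libraries.

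At an unadjusted p below 0.05 in edgeR, 143 genes lay below 0 (0.737% of the tested genes) and 155 above (0.799%). Their total of 298 became 555 without uncrushed vehicle replicate 3, 485 without crushed vehicle replicate 3 and 572 with no filter on low counts. The median difference over all tested genes was 0 and 51.6% lay below it. The median SE of a gene's difference was 0.17, or 0.15 for the 16280 genes whose mean reached 1 CPM (counts scaled to library size) in some group, so most single-gene differences well under a log2 unit could not be called in this design. The third smallest adjusted p was 0.139. The results below that did not pass are given as values.

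The crush effect itself was called upward in 1.77% and downward in 0.861% of genes with vehicle (343 and 167 genes), and upward in 3.29% and downward in 2.04% with inhibitor (638 and 396 genes). Leaving out uncrushed vehicle replicate 2 or 3 or crushed vehicle replicate 1 reduced the 510 calls with vehicle to 279, 318 or 276. Vehicle had 3 libraries in each arm and inhibitor had 5, so these counts do not show which response was larger. Genes of the injury response were therefore taken from a model with a crush effect common to both drugs, at an edgeR adjusted p of 0.05 or less and a log2 change of at least 1: 292 rose (1.51%) and 93 fell (0.48%). Among the 292 that rose, 124 (42.5%) had a smaller rise with inhibitor. Their median log2 change was 1.41 with vehicle and 1.47 with inhibitor, and their median difference was 0.09 beside 0 for all tested genes. The 95% interval of the difference included 0 for 266 of them. The change with inhibitor was also set against 50% of the change with vehicle, with a 95% interval of its own. By that interval it lay above 50% for 163 genes, could not be told from 50% for 122 and lay below 50% for 2, Gm13889 and Chac1. Another 5 had no interval because a group had no reads. The common effect gives the larger inhibitor groups more weight, so a gene that rose mainly with vehicle could miss this set. Alkal2 (rises of 1.46 and 0.11, common change 0.63) and Stbd1 (1.40 and 0.50, common change 0.83) did so. These counts therefore describe the chosen genes and do not measure how much of the response the inhibitor spared. Among the 93 genes that fell, 53 (57%) had a smaller fall with inhibitor, with medians of -1.65 and -1.50 and a median difference of 0.03. That share was 46.4% without uncrushed vehicle replicate 2. Without 15 members of the lens list, 50 of 78 (64.1%) had a smaller fall.

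**Figure D2:**
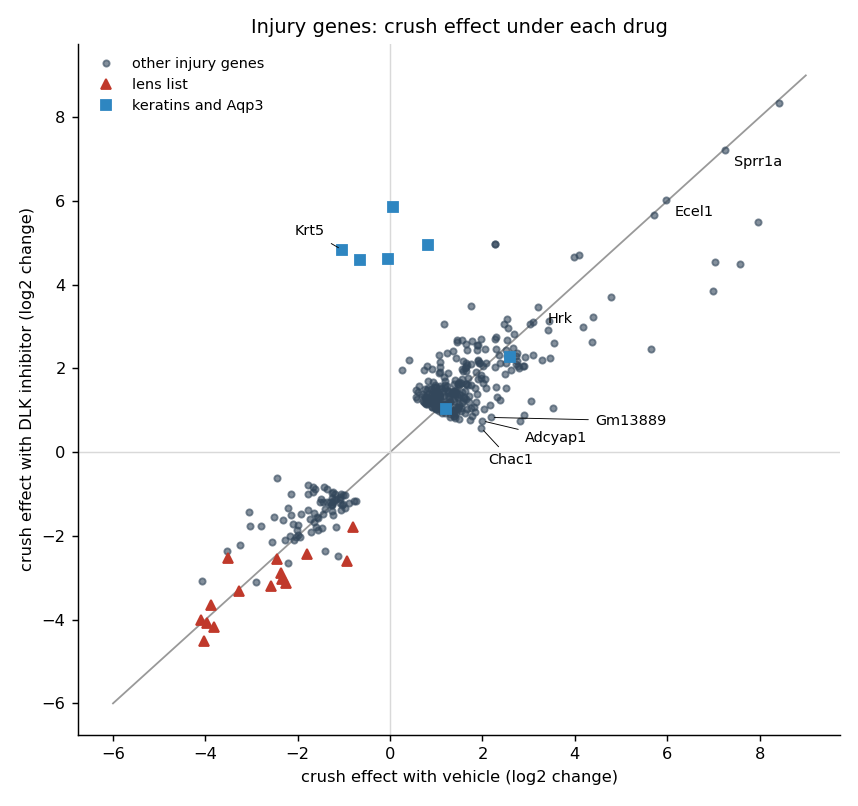
Log2 change after crush with vehicle (horizontal) and with inhibitor (vertical) for the 385 injury genes, 1 point per gene, with the line of equal change. Most points lie along the line; Gm13889, Adcyap1 and Chac1 lie below it, 4 keratin genes and Aqp3 stand high on the inhibitor axis alone, and lens genes fill the lower left.

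Genes with the largest rise common to both drugs included Sprr1a, Ecel1 and Mmp12, each of which rose under either drug. Sprr1a, a small proline-rich protein of regrowing axons, stood at 29.5, 21.2 and 23.9 nRPKM in crushed vehicle libraries and at 15.3, 18.5, 9.84, 9.5 and 11.1 in crushed inhibitor libraries, with no overlap. Its uncrushed levels were 0.0931 to 0.341 nRPKM with vehicle and 0.0341 to 0.177 with inhibitor. The difference of its crush effects was -0.03 ± 0.77 (SE), an interval of -1.65 to 1.59, because few reads fixed the uncrushed levels. In crushed retina alone Sprr1a was lower with inhibitor by a log2 difference of -0.95 (edgeR adjusted p = 0.0435). Ecel1, an endopeptidase of injured neurons, stood at 6.43 to 12.3 nRPKM with vehicle and 9.16 to 13.4 with inhibitor after crush, and its difference was 0.05 ± 0.35. Mmp12, a metalloelastase, gave -0.05 ± 0.38. Sprr1a, Ecel1 and Mmp12 each changed sign under some alternative processing.

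Among the 20 tested axon injury and regeneration-associated genes, 2 were called and 15 lay below 0, beside 0.0103% and 51.6% of all tested genes. At an unadjusted p below 0.05, 3 lay below 0 and none above 0, beside 0.737% and 0.799% of all tested genes. The list was chosen with results of these data known and held both called genes. These shares therefore describe the list and give the calls no further support. The list's median log2 change after crush was 1.35 with vehicle and 0.79 with inhibitor, and its median difference was -0.11. The list's median difference was -0.01 without crushed inhibitor replicates 3 and 5 and -0.21 without crushed inhibitor replicate 2. The member with a p below 0.05 that was not called was Sox11, a transcription factor of developing and regrowing neurons. It stood at 2.77, 2.31 and 2.09 nRPKM in crushed vehicle libraries and at 1.44, 1.9, 0.883, 1.8 and 1.3 in crushed inhibitor libraries, with no overlap. Its difference was -0.76 ± 0.28 (SE), with rises of 3.09 and 2.32 and an edgeR adjusted p of 1. Tnfrsf12a, the receptor for TWEAK and named here after its values were seen, gave -0.39 ± 0.25, with rises of 2.51 and 2.12.

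In the list of ATF4 and integrated stress response targets, 28 of 32 tested genes lay below 0, beside 51.6% of all tested genes. At an unadjusted p below 0.05, 7 lay below 0 and none above 0, beside 0.737% and 0.799% of all tested genes. Like the other lists, it was chosen with earlier results of these data known. No member was called in this fit of all 16 libraries. Chac1 was called by DESeq2 and by edgeR with no filter on low counts (adjusted p = 9.47e-05 and 0.0441). The median crush change was 0.60 with vehicle and 0.28 with inhibitor, and the median difference was -0.18. The list's median difference ran from -0.24 without uncrushed vehicle replicate 3 to -0.12 without crushed vehicle replicate 2. The median for inhibitor against vehicle was 0.27 in uncrushed retina and 0.08 in crushed retina, beside 0.01 for all tested genes in each. A higher uncrushed median was not particular to this list. Ganglion cell markers gave 0.30 and 0.23, and amacrine cell markers 0.26 and 0.17. Interferon-stimulated genes went the other way in uncrushed retina, at -0.19. For the ATF4 list the summed level was 418, 444 and 448 nRPKM in uncrushed vehicle libraries. It was 485 to 574 in uncrushed inhibitor libraries, with no overlap. After crush it was 527 to 597 with vehicle and 563 to 628 with inhibitor, with overlap.

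Chac1, the member with the smallest p, stood at 2.11, 2.55 and 2.36 nRPKM in uncrushed vehicle libraries and at 5.01, 3.77, 6.65, 5.43 and 3.8 in uncrushed inhibitor libraries. After crush it stood at 8.51, 10.8 and 8.24 nRPKM with vehicle and at 7.99, 7.85, 6.39, 8.22 and 6.26 with inhibitor. The groups did not overlap in either state, though the highest crushed inhibitor library lay just under the lowest crushed vehicle library. Inhibitor against vehicle was 1.07 in uncrushed retina (edgeR adjusted p = 0.0145) and -0.32 in crushed retina (edgeR adjusted p = 0.386). The difference of crush effects was -1.39 ± 0.24 (SE; 95% interval -1.90 to -0.88), with rises of 1.97 and 0.58 and an edgeR adjusted p of 0.139. Adm2, which encodes the peptide adrenomedullin 2 and lies outside the list, had levels under 1.2 nRPKM throughout. It stood at 0.0438 to 0.216 and 0.301 to 0.434 nRPKM in uncrushed vehicle and inhibitor libraries, and at 0.741 to 1.17 and 0.443 to 0.857 after crush. Its difference was -2.02 ± 0.52, and its groups overlapped after crush and not before.

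Other members of the list varied in which state differed between the drugs. Mthfd2, a mitochondrial folate enzyme named after its values were seen, stood at 3.9 to 4.48 nRPKM in uncrushed vehicle and 6.04 to 8.6 in uncrushed inhibitor libraries, a log2 difference of 0.77 (edgeR adjusted p = 0.00535). After crush it stood at 6.18 to 6.7 with vehicle and 7.59 to 9.64 with inhibitor, again with no overlap, a log2 difference of 0.35 (edgeR adjusted p = 0.166). Its crush effects were 0.66 and 0.24 and their difference -0.42 ± 0.15. Slc7a1, a transporter of cationic amino acids, was higher by 0.49 in uncrushed retina (edgeR adjusted p = 0.0332). It gave 0.11 in crushed retina (edgeR adjusted p = 0.641), and its difference was -0.38 ± 0.14. Atf3 encodes a transcription factor of the stress and axon injury responses. It stood at 23.1, 21.6 and 20 nRPKM in crushed vehicle libraries and at 12.4, 10.7, 5.72, 9.11 and 7.02 in crushed inhibitor libraries, and at 2.94 to 3.5 and 2.08 to 2.58 uncrushed. It was lower with inhibitor in crushed retina by a log2 difference of -1.26 (edgeR adjusted p = 0.00226) and gave -0.49 in uncrushed retina (edgeR adjusted p = 0.21). The difference of its crush effects was -0.77 ± 0.26 with an edgeR adjusted p of 1. Phgdh, the first enzyme of serine synthesis, gave -0.58 ± 0.24, Ddit3, which encodes CHOP, gave -0.31 ± 0.11, and Sesn2, a stress-induced brake on growth signalling, gave -0.36 ± 0.17; these 3 were also named after their values were seen. Phgdh and Sesn2 overlapped between the drugs in both states.

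Aldh1l2, a mitochondrial folate enzyme like Mthfd2, was among the smallest p outside the list, with crush effects of 0.74 and 0.11 and a difference of -0.63 ± 0.17. The cytosolic aminoacyl-tRNA synthetases charge tRNAs, and some of them are known ATF4 targets. Of the 19 tested members, 17 lay below 0, beside 51.6% of all tested genes. Their median difference was -0.10 (-0.15 to -0.09 over the alternatives). Beside 0.737% of all tested genes, 2 members lay below 0 at an unadjusted p below 0.05. These were Vars (-0.25 ± 0.10) and Gars (-0.24 ± 0.11), the enzymes for valine and glycine. Gars stood at 38.1 to 43.7 nRPKM in uncrushed vehicle and 49.9 to 61.4 in uncrushed inhibitor libraries, and was higher there by a log2 difference of 0.42 (edgeR adjusted p = 0.023). After crush it stood at 53 to 61.7 with vehicle and 62.8 to 71 with inhibitor, also with no overlap (log2 difference 0.18, edgeR adjusted p = 0.319). The summed level of the synthetases did not overlap in either state: 429 to 479 nRPKM with vehicle and 528 to 609 with inhibitor uncrushed, and 531 to 585 and 605 to 666 after crush. The median for inhibitor against vehicle was 0.26 in uncrushed and 0.16 in crushed retina for this list, and 0.26 and 0.17 for amacrine cell markers. Chaperones of the endoplasmic reticulum and unfolded protein response, a neighbouring stress list, had a median difference of 0.04 over 16 genes, with 5 below 0.

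**Figure D3:**
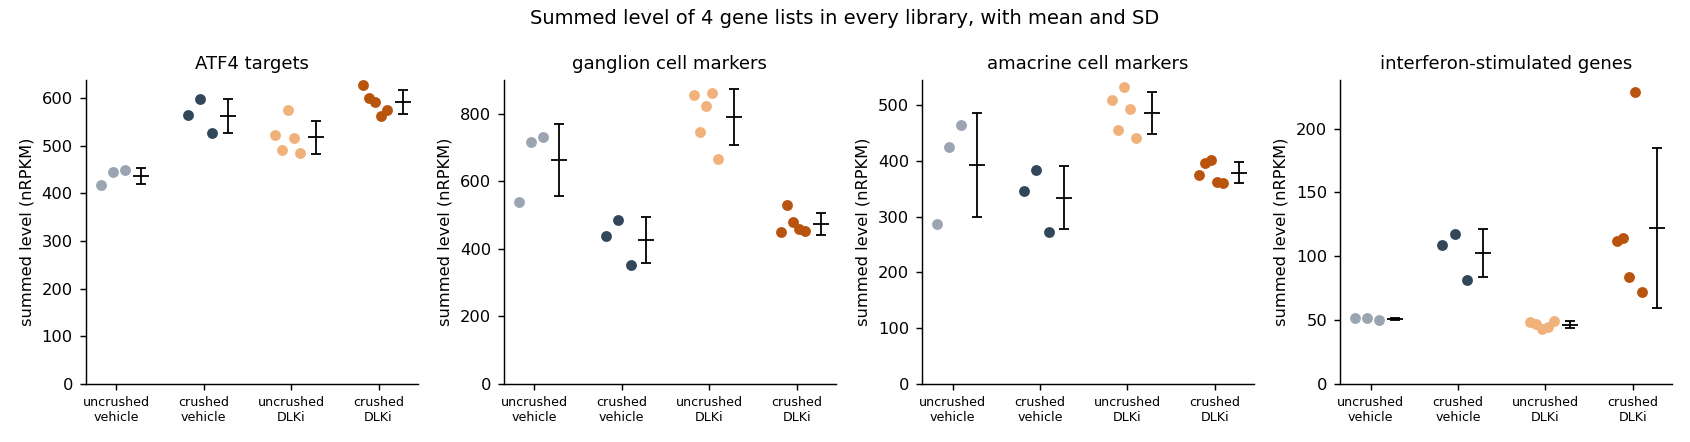
Summed level of 4 gene lists in every library, in nRPKM from 0 (points, libraries; bars, mean and SD). ATF4 targets in uncrushed retina were higher with inhibitor, interferon-stimulated genes stood highest in 1 crushed inhibitor library at 229, and amacrine markers were lowest in 1 library of each vehicle group.

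No gene of the kinase cascade itself reached an unadjusted p below 0.05. Map3k12 stood at 36.9 to 47.3 nRPKM over the 16 libraries, and its difference was 0.02 ± 0.10 (95% interval -0.20 to 0.23); the sign turned under some alternatives. Map3k13 gave 0 ± 0.13 (95% interval -0.27 to 0.27). GNE-3511 acts on kinase activity, and transcript levels do not measure it. All 11 genes of the DLK and JNK cascade list lay between -0.14 and 0.03, with a median of -0.08, and the smallest p belonged to the scaffold gene Mapk8ip3 (-0.14 ± 0.08).

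Of the 18 AP-1 and immediate early genes, 14 lay below 0, beside 51.6% of all tested genes, with a median of -0.13. In this list 1 gene, Egr2, had an unadjusted p below 0.05. Egr2 was scarce, at 0.0114 to 0.171 nRPKM over all libraries, and gave -2.06 ± 0.67. Jun, the main transcription factor target of JNK, went the other way. It stood at 22.1, 24.3 and 18.4 nRPKM in crushed vehicle libraries and at 18.4, 20.2, 13.6, 18.8 and 13.9 in crushed inhibitor libraries, with overlap. In uncrushed retina it stood at 8.89 to 12.5 with vehicle and 5.82 to 8.39 with inhibitor, with no overlap, a log2 difference of -0.69 (edgeR adjusted p = 0.0402). Its crush effects were 0.97 and 1.31, both called, and their difference was 0.34 ± 0.21 (95% interval -0.10 to 0.78).

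**Figure D4:**
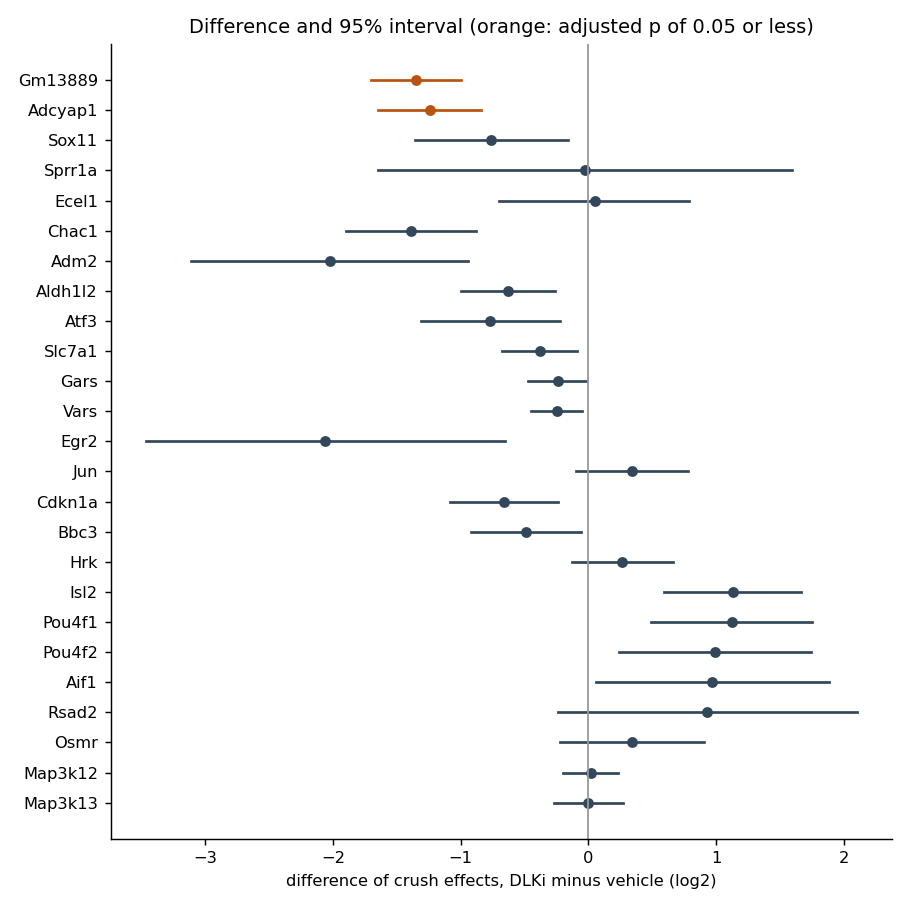
Difference of crush effects for 25 named genes (point, log2 estimate; line, 95% interval), negative where the change after crush was lower with inhibitor. Gm13889 and Adcyap1 passed the adjusted threshold; Isl2, Pou4f1 and Pou4f2 lie to the right of 0 and most stress genes to the left.

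Outside these lists, the genes of the smallest p that have a proper symbol and reach 1 CPM in some group were, besides Adm2 and Aldh1l2, Stbd1, Dok5, Alkal2, Arid5a and Fam214b, each below 0 and not called. Genes outside that limit lay on both sides of 0 at p-values of the same order. Stbd1 stood at 3.69, 3.53 and 3.67 nRPKM in crushed vehicle libraries and at 2.44, 3.17, 2.35, 2.43 and 2.53 in crushed inhibitor libraries. Uncrushed, it stood at 0.968, 1.6 and 1.49 with vehicle and at 1.89, 1.82, 1.86, 2.02 and 1.6 with inhibitor, and its difference was -0.91 ± 0.20. The groups did not overlap in either state, with inhibitor libraries higher before crush, by a narrow gap near 1.6 nRPKM, and lower after it. Alkal2, a ligand of the receptor kinase ALK, stood at 0.886 to 1.54 nRPKM in crushed vehicle and 0.388 to 0.689 in crushed inhibitor libraries and gave -1.35 ± 0.37. Exons of Acp1 on the other strand overlapped 35.1% of its exon length, and the reads of the 2 genes cannot be told apart there. Arid5a, an RNA-binding stabiliser of inflammatory transcripts, rose by 1.5 with vehicle and 0.80 with inhibitor and gave -0.70 ± 0.20. Dok5, an adaptor of receptor kinases, gave -0.73 ± 0.19, and Fam214b gave -0.34 ± 0.10. The antioxidant gene Srxn1, which encodes sulfiredoxin, rose by 1.07 and 0.70 and gave -0.38 ± 0.13, and Hmox1, which encodes heme oxygenase, rose by 1.30 and 0.92 and gave -0.38 ± 0.20.

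Genes of cell death were mixed. Cdkn1a, the p53 target that encodes the cell cycle inhibitor p21, stood at 8.69, 8.41 and 7.62 nRPKM in crushed vehicle libraries and at 5.28, 6.14, 4.95, 4.65 and 4.85 in crushed inhibitor libraries, with no overlap. It rose by 1.87 with vehicle and 1.21 with inhibitor, a difference of -0.66 ± 0.20 with an edgeR adjusted p of 1. In crushed retina it was lower with inhibitor by -0.67 (edgeR adjusted p = 0.0287) and in uncrushed retina the value was -0.01. Bbc3, which encodes the pro-apoptotic protein PUMA, rose by 0.93 and 0.45 and gave -0.49 ± 0.20. Hrk, another pro-apoptotic gene and one known to depend on JNK in neurons, stood at 1.81 to 2.15 nRPKM in crushed vehicle and 1.23 to 1.78 in crushed inhibitor libraries. Uncrushed, it stood at 0.201 to 0.225 nRPKM with vehicle and 0.121 to 0.143 with inhibitor. The drugs did not overlap in either state. Inhibitor against vehicle gave -0.65 in uncrushed and -0.39 in crushed retina, with edgeR adjusted p of 0.0584 and 0.128. The rise of Hrk was 3.21 with vehicle and 3.47 with inhibitor, a difference of 0.26 ± 0.19. Across 18 pro-apoptotic genes the median difference was 0.01, with 8 below 0, and across 13 p53 targets it was -0.03, with 8 below 0.

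Among 21 ganglion cell markers, 3 had an unadjusted p below 0.05, all above 0, beside 0.799% of all tested genes. For these 3 the fall was smaller with inhibitor, and none was called in this fit. DESeq2 called Isl2. A block of neighbouring library numbers, which the labels do not give as pairs, called Pou4f1 (edgeR adjusted p = 0.0226). The 3 were the transcription factor genes Isl2, Pou4f1 and Pou4f2, which specify and maintain ganglion cells. Isl2 stood at 0.463, 0.739 and 0.404 nRPKM in crushed vehicle libraries and at 1.32, 1.39, 1.46, 1.34 and 1.49 in crushed inhibitor libraries. In uncrushed retina it stood at 1.26, 1.97 and 2.04 with vehicle and at 2.4, 1.89, 2.24, 2.18 and 1.73 with inhibitor. The crushed groups did not overlap and the uncrushed groups did. It fell by 1.70 with vehicle and by 0.57 with inhibitor on the log2 scale, and the difference was 1.13 ± 0.25 (SE; 95% interval 0.59 to 1.66; edgeR adjusted p = 1).

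Pou4f1, which encodes BRN3A, stood at 2.42, 3.17 and 1.35 nRPKM in crushed vehicle libraries and at 5.15, 7.01, 7.56, 5.18 and 5.65 in crushed inhibitor libraries, with no overlap. It fell by 1.45 with vehicle, while the value with inhibitor was -0.33 (edgeR adjusted p = 0.462), and the difference was 1.12 ± 0.30 (edgeR adjusted p = 1). Pou4f2, which encodes BRN3B, fell by 1.77 and by 0.78, a difference of 0.99 ± 0.35. The direct comparison in crushed retina gave 1.37, 1.39 and 1.37 for Isl2, Pou4f1 and Pou4f2, with edgeR adjusted p of 0.0032, 0.0108 and 0.0277. Rbpms, an RNA-binding protein found in all ganglion cells and named after its values were seen, stood at 2.19 to 3.27 nRPKM in crushed vehicle and 3.75 to 4.79 in crushed inhibitor libraries and gave 0.42 ± 0.22.

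The ganglion cell list as a whole had 14 of 21 members below 0 and a median difference of -0.03, with a median crush change of -0.69 with vehicle and -0.64 with inhibitor. Its summed level was 352 to 485 nRPKM in crushed vehicle and 448 to 529 in crushed inhibitor libraries, which overlapped. Without uncrushed vehicle replicate 1 the median was 0.13, and without crushed vehicle replicate 3 it was -0.13. Both of these libraries had low sums of amacrine cell markers, and the part of that in the ganglion cell values was not tested.

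**Figure D5:**
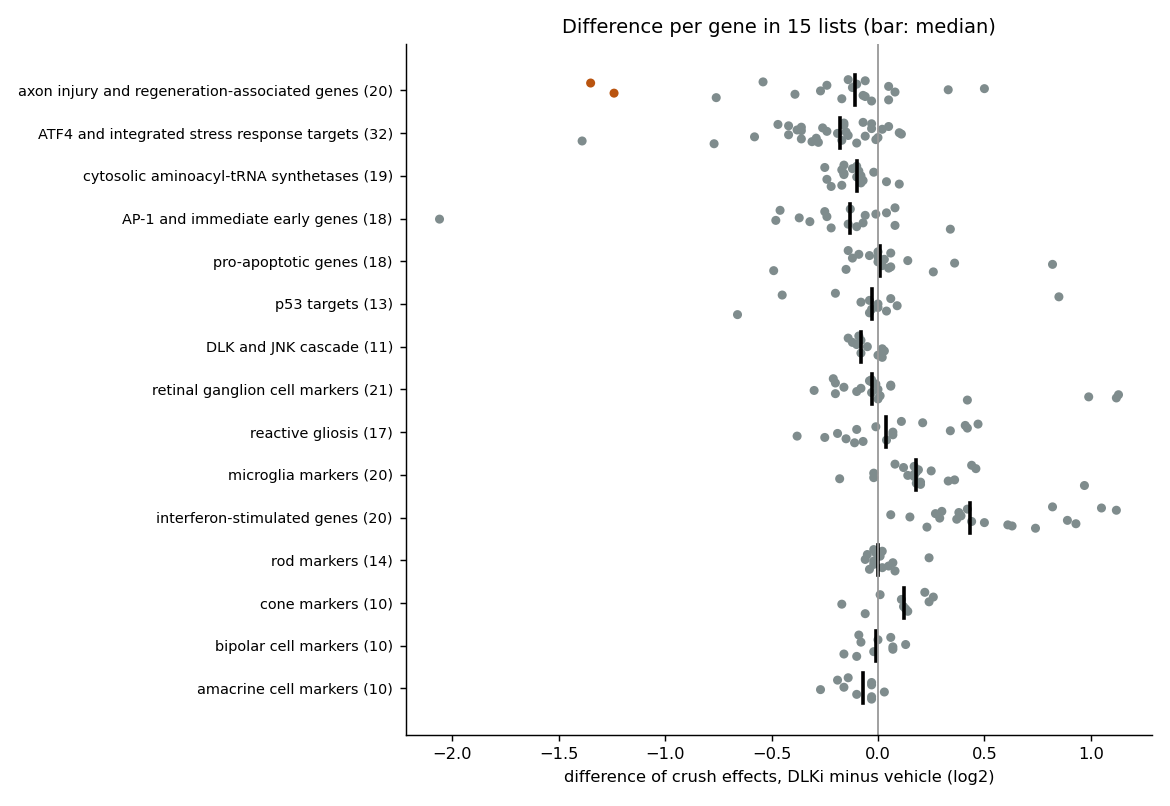
Difference of crush effects for each tested gene in 15 lists (points; orange, adjusted p of 0.05 or less), with the list median as a bar and the number of tested genes in parentheses. The ATF4 and synthetase points lie mostly left of 0, interferon-stimulated genes lie right of 0, and in the ganglion cell list 3 points stand at about 1.

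The 17 reactive gliosis genes, mostly of Müller glia and astrocytes, had a median crush change of 1.18 under each drug and a median difference of 0.04, with 8 below 0. Osmr, the oncostatin M receptor of reactive glia, rose by 1.19 and 1.53, a difference of 0.34 ± 0.27. Of 20 microglia markers 3 lay below 0, beside 51.6% of all tested genes, and the median difference was 0.18. That median was 0.06 without crushed inhibitor replicate 1 and 0.44 without the 2 keratin-rich libraries. Aif1, which encodes the microglial protein IBA1, had the single unadjusted p below 0.05. It stood at 0.575 to 0.623 nRPKM in crushed vehicle and 0.404 to 0.993 in crushed inhibitor libraries and gave 0.97 ± 0.43. Its 2 lowest crushed inhibitor values, 0.569 and 0.404, were those of replicates 3 and 5.

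All 20 interferon-stimulated genes lay above 0, beside 9391 of the 19391 tested genes. Their median was 0.43, and none had an unadjusted p below 0.05. Crushed inhibitor replicate 4 stood apart from the rest: Usp18, which encodes an interferon feedback protease, stood at 9.4 nRPKM there and at 1.51 to 3.12 in the other crushed inhibitor libraries, against 1.4 to 2.92 in crushed vehicle libraries. Rsad2, which encodes viperin, stood at 1.97 there against 0.458 to 0.802. Without that library the list's median was 0.09, and without the 2 keratin-rich libraries it was 0.82. Of 8 tested complement, chemokine and cytokine genes, 6 lay above 0 and 2 below, with a median difference of 0.13. Ccl12, a monocyte chemokine gene with an unadjusted p below 0.05, was listed at 0 in 3 of 5 uncrushed inhibitor libraries and stood at 0.164 to 0.503 nRPKM in uncrushed vehicle libraries. After crush it stood at 1.11 to 1.85 with vehicle and 0.292 to 1.89 with inhibitor, with overlap. The chemokine gene Cxcl10 rose under both drugs, by 3.99 and 4.66, with a difference of 0.67 ± 0.83, and Ccl2, another monocyte chemokine gene, rose by 3.55 and 2.61, with a difference of -0.94 ± 1.21.

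Some of the largest differences belonged to genes known from tissues of the eye outside the neural retina. Krt5, a keratin of surface epithelium, stood at 6.14 and 14.3 nRPKM in crushed inhibitor replicates 3 and 5 and at most at 0.532 in every other library. Its difference was 5.88 ± 2.54, with an edgeR adjusted p of 1. Krt13, Krt4 and Aqp3 showed the same 2 libraries or replicate 5 alone at the top, with 2.05 and 9.68, 0.135 and 3.54, and 1.08 and 2.21 nRPKM. The 6 largest common decreases after crush with at least 1 CPM in some group were all lens crystallin genes. Lens markers as a list had a median difference of -0.42 that ran from -2.69 without uncrushed vehicle replicate 2 to 1.26 without the 2 shallowest vehicle libraries. Markers of retinal pigment epithelium had a median of 0.41, of 0.83 without uncrushed vehicle replicate 3 and of -0.53 without uncrushed vehicle replicate 1, where they summed to 341 nRPKM against 40.8 to 172 elsewhere. The part of these tissues in the results above was not tested beyond leaving the libraries out.

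For photoreceptors and interneurons, median differences were 0 for 14 rod, 0.12 for 10 cone, -0.01 for 10 bipolar, -0.07 for 10 amacrine and 0.02 for 6 horizontal cell markers, and no member had an unadjusted p below 0.05.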

How the data were processed

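RNA-seq of 16 retina libraries was used as deposited. Per the labels' protocols, 0.5 µg of total RNA went into TruSeq RNA version 2 libraries, and 50-base single reads came from a HiSeq4000. The authors' counts are, per the file headers, reads aligned uniquely to each gene model; the authors' nRPKM, also in the files, is RPKM adjusted by a size factor and was used only for levels. GSNAP and GRCm38 come from the submitters' processing notes, with no version or gene model release given in the sources used here. Since the kit does not mark strand, overlapping genes share reads: exons of another gene overlapped 15 of 54 genes checked, and Alkal2 over 35.1% of its exon length. Entrez identifiers were matched to RefSeq symbols (31049 of 36528; the rest held 1.098% to 1.216% of counts).

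The tests used edgeR 4.0.16 under R 4.3.3 on counts (TMM, filterByExpr, quasi-likelihood F test, 1 mean per group, all 16 libraries, no covariate; 12 residual and 5.27 prior degrees of freedom), two-sided, with Benjamini-Hochberg adjustment over 19391 genes and calls at 0.05. SE come from the fitted weights. Levels are mean ± SD or single libraries. The test was also run on simulated counts of independent libraries without outlying ones, which does not cover the outlying libraries described above. No replicates were copies: chi-square values between them, per degree of freedom, were 6.73 to 42.8. The genes and the 33 lists were chosen with earlier results of these data known. Named were the 12 genes with the smallest p that have a proper symbol and at least 1 CPM in some group, up to 3 genes per list by p, the 10 largest increases and 6 largest decreases common to both drugs, Map3k12 and Map3k13; others are marked as named after their values were seen. Alternatives were RLE factors, total counts, DESeq2 1.42.0, limma voom 3.58.1, 2 other filters, robust spread, libraries left out and a block of neighbouring library numbers. Leaving out the keratin-rich and the lens-rich libraries was chosen after seeing the data.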

Additional observations from a re-analysis of the deposited data

Results flagged for a closer look

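The crush effects of Gm13889 and Adcyap1 differed between inhibitor and vehicle in the test of the difference itself, by -1.35 and -1.24 on the log2 scale (edgeR adjusted p = 0.00551 and 0.0454); Adcyap1 lost the call without any of 14 of the 16 libraries.

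Among 110 groups of 5 libraries, 1 library lay far from the other 4 in 14 cases, and chance gives about 1 in 20. In crushed inhibitor replicate 4, Rsad2 stood at 1.97 and Usp18 at 9.4 nRPKM. In crushed inhibitor replicate 5, Krt13 stood at 9.68 and Krt4 at 3.54 nRPKM. In crushed inhibitor replicate 2, Stbd1 stood at 3.17 and Srxn1, which encodes the antioxidant enzyme sulfiredoxin, at 50.8 nRPKM. Pou4f2 stood at 3.36 nRPKM in crushed inhibitor replicate 3. Gm13889 stood at 19.9 nRPKM in uncrushed inhibitor replicate 3. In uncrushed inhibitor replicate 5, Fam214b stood at 4.1 and Srxn1 at 23.8 nRPKM. In uncrushed inhibitor replicate 2, Atf3 stood at 2.58 and Mmp12 at 0.0323 nRPKM, and Aqp3 was at 0. Siglech, a microglia marker, stood at 0.61 nRPKM in uncrushed inhibitor replicate 1.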

How the results depend on the processing

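Over 28 alternatives, the 55 genes followed gave 1526 values of the difference: 1474 kept direction and side of the threshold, 27 from 5 genes changed sign, 20 lost a call and 5 gained one. Map3k13, whose difference rounded to 0, ran from -0.08 to 0.09 and could not be counted as changing sign. Gm13889 was called in 27 of 28 (-1.51 to -1.19; adjusted p 1.03e-10 to 0.157) and Adcyap1 in 9 of 28 (-1.40 to -1.10; adjusted p 2.82e-06 to 0.398). The count of 2 called differences became 5 with DESeq2, which added Chac1, Stbd1 and Isl2, and 1 with limma voom. No filter gave 3, adding Chac1. It was 1 to 2 when each library was left out in turn, 1 without both shallowest vehicle libraries, 1 without crushed vehicle replicate 2 and uncrushed vehicle replicate 3, whose sample numbers lie apart, 1 without both keratin-rich libraries, and 0 in edgeR without the 3 lens-rich libraries, where 328 genes had an unadjusted p below 0.05. DESeq2 and voom were not run on those 13 libraries, and the cause of these changes was not tested beyond the smaller number of libraries.

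The 510 calls of the crush effect with vehicle became 276 to 506 when single libraries were left out, 258 without the vehicle pair with distant sample numbers and 263 without the lens-rich libraries; without uncrushed vehicle replicate 1 they split into 248 up and 258 down. The 1034 calls with inhibitor were 748 to 1258 with single libraries left out and 620 without the lens-rich libraries. The 385 injury genes were 250 with the filter of 1 CPM in 3 libraries, which tests fewer genes.

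The labels pair no retinas, and the replicate numbers are only the order of the records. Neighbouring library numbers (8 pairs of 1 crushed and 1 uncrushed library of the same drug, correlations of deviations 0.04 to 0.44, not all above 0.1) were tried as a block: 3 differences (with Pou4f1 added, at an adjusted p of 0.0226; 850 genes had an unadjusted p below 0.05), 1234 calls with vehicle and 2080 with inhibitor.

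Most signs that turned belonged to genes near 0. Sprr1a gave 0.01 with DESeq2, 0.17 without the pair with distant numbers, 0.15 without the keratin-rich and 0.03 without the lens-rich libraries. With single libraries left out, Sprr1a gave -0.65 to 0.44, Ecel1 -0.19 to 0.23, Mmp12 -0.28 to 0.26 and Map3k12 -0.09 to 0.09. Without the pair with distant numbers, Ecel1 gave -0.40 and Mmp12 0.17. Mmp12 gave 0.10 without the keratin-rich libraries, and Map3k12 gave -0.02 without the shallowest libraries. Fas was further from 0, at -0.45 ± 0.35 (SE) with all libraries, and gave 0.02 without the lens-rich libraries. The share of induced injury genes with a smaller rise ran from 31.3% without the keratin-rich libraries to 50% without crushed inhibitor replicate 2, and of reduced genes with a smaller fall from 46.4% without uncrushed vehicle replicate 2 to 72.9% without crushed vehicle replicate 2. Sprr1a, scarce before crush, and Egr2, scarce throughout, had wide intervals. The intervals of Krt5, Krt13 and Krt4 were also wide, and these genes stood highest in crushed inhibitor replicate 5.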
